A study of Rattus norvegicus with 448 samples.

Results

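Genes of the collagen matrix and of the hepatic stellate cell were followed across the livers of outbred rats. The set was chosen by Ensembl gene ID, and 5 of the 6 listed genes had a row among the 16796 genes of the table: Col1a1 (ENSRNOG00000003897), Col3a1 (ENSRNOG00000003357), Acta2 (ENSRNOG00000058039), Des (ENSRNOG00000019810) and Tgfb1 (ENSRNOG00000020652). Col1a2 was not analysed here. The names are those of the list, since 0 of the table's IDs occurred in the gene table used here.

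All livers formed 1 group of outbred Rattus norvegicus aged 17 weeks, with no sex, genotype or treatment in the labels, and the study mapped metabolic traits and liver expression in these animals. RNA from snap-frozen tissue was sequenced in 37 bp paired-end reads. In all, 430 libraries could be matched to a column of values. With 1 group there was no contrast between conditions, so the comparisons below are between genes, between libraries that share part of an identifier, and along technical measures of the libraries. The labels do not say that each library is a separate animal, so p-values measure the spread between libraries. The tests of pairs, title number and depth treat libraries as independent. Libraries that share part of an identifier or lie close in title number were somewhat alike in some genes, so those p-values may be too small. The labelled tissue could not be checked against liver markers, because no source used here pairs the other IDs with names.

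Fibrillar collagen of the liver is made mainly by stellate cells, which lie between the hepatocytes and the sinusoidal endothelium, and by portal fibroblasts. In a resting stellate cell collagen synthesis is low. When the liver is injured the cell turns into a contractile myofibroblast, and transforming growth factor beta, the product of Tgfb1, is among the main signals that raise collagen transcription, through SMAD proteins. Col1a1 encodes a chain of type I collagen, the main collagen of scars, and Col3a1 the chain of type III collagen, which forms fine reticular fibres along the sinusoids. Acta2 encodes alpha-smooth muscle actin, found in vascular smooth muscle and in activated stellate cells. Its coding sequence is close to those of other actin genes, and the sources used here do not say how reads shared between them were counted. Des encodes desmin, an intermediate filament of muscle cells that also marks stellate cells in rat liver. Tgfb1 is made by several cell types of the liver, macrophages among them.

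Promoter sequences are shown for the cytoskeletal genes and the ligand, because the collagen genes had no promoter entry. Of the 5 genes, 3 had an entry among the 33469 RefSeq promoters of rat build GRCr8, each from 250 bases before to 50 bases after the gene's start: Acta2 at chr1:241172454-241172753 on the minus strand, Des at chr9:84299376-84299675 on the plus strand, and Tgfb1 at chr1:90324062-90324361 on the plus strand. These coordinates are those of GRCr8, and the build of the expression table is not given in the sources used here. Capitals mark every match to 6 motifs searched on both strands: the TATA box with the letters TATAAA, the CCAAT box, the GC box with the letters GGGCGG, the element CAGAC bound by SMAD proteins, the AP-1 element with the letters TGANTCA, and the CArG box bound by serum response factor, taken as CC, 6 letters of A or T, and GG with no mismatch.
Acta2: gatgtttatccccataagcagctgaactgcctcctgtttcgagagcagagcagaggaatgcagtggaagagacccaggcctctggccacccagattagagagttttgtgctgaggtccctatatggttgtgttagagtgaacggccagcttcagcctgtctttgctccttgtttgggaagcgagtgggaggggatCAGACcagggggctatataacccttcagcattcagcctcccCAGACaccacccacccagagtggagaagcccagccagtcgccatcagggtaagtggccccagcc
Des: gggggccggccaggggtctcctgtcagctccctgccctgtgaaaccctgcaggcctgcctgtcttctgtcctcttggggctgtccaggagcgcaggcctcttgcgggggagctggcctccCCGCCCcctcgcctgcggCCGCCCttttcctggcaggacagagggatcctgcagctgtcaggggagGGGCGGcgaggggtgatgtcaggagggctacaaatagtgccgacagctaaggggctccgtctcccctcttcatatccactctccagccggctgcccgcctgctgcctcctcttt
Tgfb1: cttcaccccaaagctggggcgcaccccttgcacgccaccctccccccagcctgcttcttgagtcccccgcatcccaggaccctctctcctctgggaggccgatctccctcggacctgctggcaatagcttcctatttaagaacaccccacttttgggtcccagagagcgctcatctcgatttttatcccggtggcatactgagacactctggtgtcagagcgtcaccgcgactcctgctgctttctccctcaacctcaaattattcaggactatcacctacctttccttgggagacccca
The Acta2 window held CAGAC at -55 to -51 and at -14 to -10 relative to the start, a motif present in 50.1% of all promoters of this length. The Des window held the GC box at -64 to -59 and, on the reverse strand, at -130 to -125 and -112 to -107, against 33.1% of promoters with a match. The Tgfb1 window held none of the 6. The TATA box letters were found in 14.2% of promoters, the CCAAT box in 37.5%, the AP-1 element in 7.3% and the CArG box in 1.6%, and none of these was found in the 3 windows. Forms of an element with a mismatch were not counted. The Acta2 window holds such forms, ccctatatgg and ccttgtttgg for the CArG box and tatata for the TATA box, each 1 letter off. Other such forms were not searched for. The windows had a GC content of 56% (Acta2), 67.7% (Des) and 57.7% (Tgfb1), against a median of 51.7%. None of the motifs was found in more than 1 of the windows, and the matches describe letters only.

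Type III collagen mRNA was by far the most abundant of the 5. Levels are given as FPKM, a value scaled both to the length of the gene and to a size factor of the library, so that genes can be set side by side. Col3a1 had a median of 40.2 FPKM over the 430 libraries, from 7.89 to 79.7 (mean 40.3 ± 10.6, SD). Tgfb1 had a median of 5.56 FPKM, from 0 to 24.9 (5.89 ± 2.06). Acta2 had a median of 3.67 FPKM, from 0 to 17.6 (3.94 ± 1.83). Des and Col1a1 were lowest and close together. Des had a median of 2.46 FPKM, from 0 to 13.6 (2.75 ± 1.39), and Col1a1 had a median of 2.43 FPKM, from 0 to 7.81 (2.58 ± 1.13). Quartiles were 32.7 and 46.8 FPKM for Col3a1, 4.64 and 6.78 for Tgfb1, 2.74 and 4.67 for Acta2, 1.92 and 3.19 for Des, and 1.84 and 3.25 for Col1a1. In these whole-tissue libraries, fewer cells of a type and less RNA per cell cannot be told apart.

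**Figure D1:**
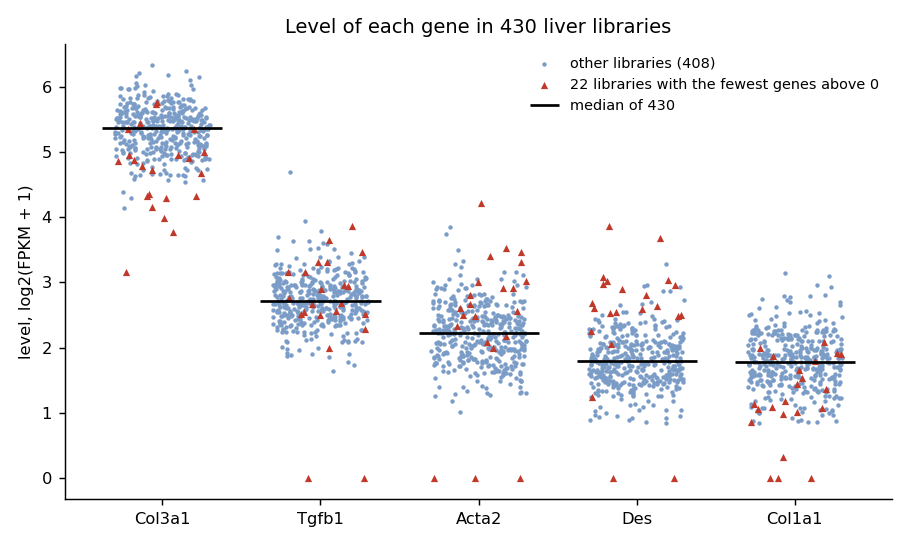
Level of each gene as log2(FPKM + 1) on a linear axis, 1 point per library (n = 430), in the order of the medians (black lines); triangles mark the 22 libraries with the fewest genes above 0. Col3a1 lies above the other genes in every library, and the triangles lie mostly low for Col1a1 and Col3a1 and mostly high for Acta2 and Des.

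The order Col3a1, Tgfb1, Acta2 held in most livers, and the lower end of the order did not separate. Col3a1 exceeded Tgfb1 in 430 of 430 libraries, with a median difference of 2.64 in log2(FPKM + 1) (SD 0.51). Tgfb1 exceeded Acta2 in 85.3% of libraries, by a median of 0.52 (SD 0.5). Acta2 exceeded Des in 79.8%, by a median of 0.41 (SD 0.53), which is less than its spread. Des exceeded Col1a1 in 47.9%, with a median difference of -0.02 (SD 0.57), so these neighbours did not differ beyond their spread. Without the 22 libraries with the fewest genes above 0, the last 3 shares were 87.5%, 81.4% and 45.8%, and Col3a1 exceeded Tgfb1 in every library.

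The ratio of the collagen genes differed between libraries, mainly along the level of Col1a1. In the libraries with Col1a1 above 0, all but 3, Col3a1 was a median of 16 times Col1a1 in FPKM. The quartiles of this ratio were 13.2 and 19.8, and it ranged from 5.99 to 49.1. Both ends of that range came from libraries outside the 22 with the fewest genes. On a log2 scale the ratio had r = -0.771 with Col1a1 and -0.106 with Col3a1, as a description, because both genes are part of it. No library had more Col1a1 than Col3a1.

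Depth set how firmly single values can be read. Reads were reconstructed from the steps in the deposited values, and had a median of 24586325 per library (quartiles 19710379 and 28665551, range 186437 to 61321582), with 10 libraries under 5000000. A library had on average 4798.1 reads on Col3a1, 302.6 on Tgfb1, 137.1 on Des and 127.8 on Acta2, with at most 1448 on Col1a1. Counting error, taken with 2 reads to a fragment, made up 1.48% of the variance of Col3a1, 4.01% of that of Col1a1, 8.0% for Tgfb1, 9.51% for Des and 10.8% for Acta2. Zeros were found in shallow libraries only. LSW_166 (246924 reads) and LSW_226 (186437 reads) were at 0 for Col1a1, Acta2, Des and Tgfb1, and there 3 reads of Acta2 would have given 11.4 and 16.3 FPKM, both above its median elsewhere. Col1a1 was also at 0 in LSW_271 (978599 reads), where 3 reads would be 0.83 FPKM, and Acta2 in LSW_344 (1956874 reads), where 3 reads would be 1.52 FPKM. Absence was therefore not detectable in LSW_166 and LSW_226.

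The 22 libraries with the fewest genes above 0 stood apart, and in opposite directions for the collagens and for the cytoskeletal genes. They held 7108 to 14117 genes above 0 (median of the others 15896) and 186437 to 9291071 reads. Col1a1 had a median of 1.23 FPKM in them and 2.47 in the others, and Col3a1 had 27.2 and 40.5. Acta2 had 5.22 and 3.62 FPKM, and Des had 5.17 and 2.41. Tgfb1 had 5.6 and 5.56. Of the 22, 19 were below the overall median for Col3a1 and 16 for Col1a1, while 19 were above it for Des and 16 for Acta2. The values rest on few reads, a median of 30 for Acta2 and 51 for Des in these libraries against 500 for Col3a1. Since these libraries were picked by a technical measure after sequencing, the differences are given with no test, and values without them stand beside the results below.

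The highest libraries differed between the genes. LSW_116 was highest for both collagens, with 7.81 FPKM of Col1a1 and 79.7 of Col3a1, and had 3.47 FPKM of Acta2, 3.06 of Des and 6.7 of Tgfb1, each between the quartiles of that gene. LSW_75 was second for both collagens, at 7.55 and 74.3 FPKM. LSW_4 was highest for Tgfb1 at 24.9 FPKM on 1060 reads, well above the second, LSW_5, at 14.3. In LSW_4 Acta2 was 8.69 and Des 5.46 FPKM, both in the top 17 libraries, but Col1a1 was 2.14 and Col3a1 27.7 FPKM, ranks 270 and 390 from the top. The highest Acta2 value, 17.6 FPKM in LSW_218, rested on 54 reads, and the highest Des value, 13.6 FPKM in LSW_344, on 42 reads, and both libraries are among the 22. Outside those, the highest Acta2 value was 13.3 FPKM in LSW_429, where Des was 4.44, and the highest Des value was 8.73 FPKM on 460 reads in LSW_49, where Acta2 was 3.09. At the low end outside the 22, LSW_249 had the lowest Col1a1 value, 0.789 FPKM, with 18.7 FPKM of Col3a1, 1.51 of Acta2, 0.859 of Des and 3.78 of Tgfb1. All 5 of its values lay below the lower quartile of their gene.

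Each of the genes varied more than the median gene on this scale. Their SD over libraries was 0.50 for Acta2, 0.46 for Des, 0.45 for Col1a1, 0.42 for Tgfb1 and 0.40 for Col3a1 (log2), against a median of 0.377 over the 12234 genes tested. These SDs stood at percentiles 72.1, 66.4, 65.7, 59.3 and 54.2. The comparison turned with the pseudocount: with 0.5 in place of 1 Col3a1 lay below the median (0.402 against 0.433), and with 5 Col1a1 (0.207) and Des (0.226) lay below it (0.232). For a fold measure without a pseudocount, the 95th percentile of libraries exceeded the 5th by 4.45 times for Col1a1, 4.12 for Des, 3.84 for Acta2, 2.74 for Tgfb1 and 2.37 for Col3a1. Col3a1 thus spread least in relative terms of the 5. A first principal component of all genes held 45.7% of the variance over libraries. Col1a1 (r = 0.324) and Col3a1 (0.301) lay on one side of it and Des (-0.569), Acta2 (-0.316) and Tgfb1 (-0.191) on the other, as a description, because the component is built from the same values. Without the 22 libraries these values were 0.219 and 0.097 for the collagens and -0.496, -0.321 and -0.23 for the others. With the first 5 components removed the SD of Tgfb1 fell to 0.249 and that of Des to 0.323, while Acta2 kept 0.427, Col1a1 0.392 and Col3a1 0.353.

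The collagen genes rose and fell together more closely than any other pair of the 5. Each pair was tested with limma, with the log2 level of the gene listed first as covariate and p-values adjusted over all 12233 other genes, and with permutation tests of Pearson's r and Spearman's rho adjusted over the 10 pairs (100000 resamples, two-sided). Between Col1a1 and Col3a1 r was 0.689 and rho 0.674 (adjusted permutation p = 2e-05 and 1.43e-05, from the smallest p these permutations can give), and limma's adjusted p was 3.37e-58. Without the 2 libraries farthest from the median of Col1a1 r was 0.709, in 4 blocks made by cutting the libraries in the order of their title numbers it was 0.67, 0.622, 0.732 and 0.741, and without the 22 libraries it was 0.687. Among all genes tested, Col1a1 was the gene closest to Col3a1, and Col3a1 ranked 3 with Col1a1. Without the 22 libraries these ranks were 4 and 3. With the first 5 components as covariates they were 4 and 5, and with both changes 5 and 7. Of the 43 libraries highest in Col1a1, 24 were also among the 43 highest in Col3a1, and 22 of the 43 lowest were shared. Of the 24 shared highest, 0 are among the 22 libraries with the fewest genes. At the low end, 8 of the 10 libraries lowest in Col3a1 and 5 of the 10 lowest in Col1a1 are.

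**Figure D2:**
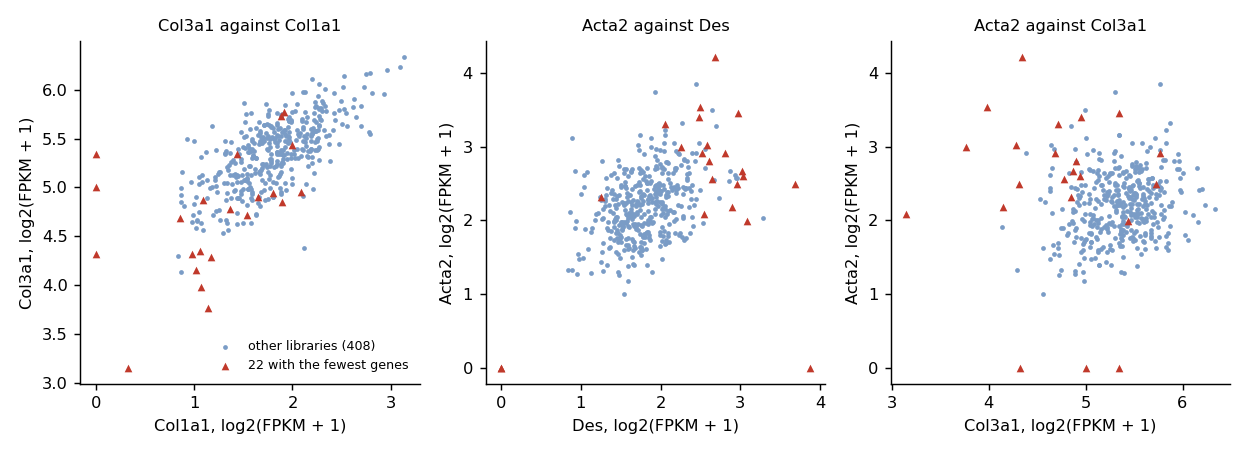
Levels of 3 pairs of genes as log2(FPKM + 1), 1 point per library (n = 430), with triangles for the 22 libraries with the fewest genes above 0. Col3a1 rises with Col1a1 (r = 0.689), Acta2 rises more loosely with Des (r = 0.4), and Acta2 shows little relation to Col3a1 (r = 0.091), where the triangles lie towards low Col3a1.

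Of the 10 pairs, 8 passed limma's adjusted threshold of 0.05 with a positive slope. That share is not particular to these genes: of all genes tested, 76.9% passed with Col1a1 as covariate, 75.9% with Col3a1, 75.3% with Acta2, 86.3% with Des and 66.4% with Tgfb1, and 52.5%, 49.2%, 37.3%, 39.4% and 37.9% passed as higher. The pairs are therefore better described by the size of r beside that of other genes. The median r over genes was 0.117 with Col1a1, 0.094 with Col3a1, -0.001 with Acta2, -0.054 with Des and 0.027 with Tgfb1.

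Acta2, Des and Tgfb1 were correlated with each other, more loosely than the collagens. Des and Tgfb1 had r = 0.491 (rho 0.41), Acta2 and Tgfb1 0.425 (rho 0.341) and Acta2 and Des 0.4 (rho 0.403), with adjusted permutation p = 2e-05 for each r and 1.43e-05 for each rho. In limma the adjusted p was 7.94e-27, 4.56e-18 and 6.37e-16. Among all genes ranked by r with Acta2, Tgfb1 stood at the 99.53rd percentile and Des at the 99.13th. Ranked by r with Tgfb1, Des stood at the 97.96th and Acta2 at the 96.32nd. Ranked by r with Des the others were less outstanding, Tgfb1 at the 90.71st and Acta2 at the 82.4th. Without the 2 libraries farthest from the median of the first gene, r was 0.48, 0.34 and 0.345, and without the 22 libraries it was 0.437, 0.363 and 0.377. Over the 4 blocks r ranged from 0.358 to 0.591 for Des and Tgfb1, from 0.156 to 0.579 for Acta2 and Tgfb1, and from 0.137 to 0.591 for Acta2 and Des, lowest in the block of the highest title numbers each time. Of the 43 libraries highest in Acta2, 15 were also among the 43 highest in Des, and 8 of those 15 are among the 22.

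Between the collagens and these genes the relations were weaker. Col1a1 had r = 0.3 with Tgfb1 (rho 0.257), 0.215 with Des (rho 0.245) and 0.184 with Acta2 (rho 0.137), with limma's adjusted p = 1.07e-09, 1.38e-05 and 0.000222. Adjusted permutation p for r was 2e-05, 5.71e-05 and 0.0002, and without the 2 libraries farthest from the median of Col1a1 r was 0.211, 0.154 and 0.112. Col3a1 had r = 0.209 with Tgfb1 (rho 0.31, limma's adjusted p = 2.92e-05, adjusted permutation p = 3.33e-05). Col3a1 did not pass with Acta2 (r = 0.091, rho 0.131, limma's adjusted p = 0.077) or with Des (r = 0.066, rho 0.189, limma's adjusted p = 0.202). Their rho did pass, with adjusted permutation p of 0.00649 and 0.000175. Without the 2 libraries farthest from the median of Col3a1 these 3 values of r were 0.234, 0.108 and 0.101. The blocks gave -0.053 to 0.181 for Col3a1 with Acta2 and -0.098 to 0.2 for Col3a1 with Des, so neither relation kept its sign in every block, and Col1a1 with Des (-0.042 to 0.354) did not either. Without the 22 libraries both Col3a1 pairs passed in limma, with r of 0.2 (adjusted p = 0.000481) and 0.291 (adjusted p = 5.4e-08), against 27.6% of all genes. In the same libraries r was 0.334 for Col3a1 and Tgfb1, 0.351 for Col1a1 and Des, 0.286 for Col1a1 and Tgfb1 and 0.177 for Col1a1 and Acta2.

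Variation shared by many genes was then taken out, which left the collagen pair close to where it was and moved most of the others. With the first 5 principal components as covariates, r was 0.651 for Col1a1 and Col3a1, and 0.183 for Col1a1 and Acta2. It fell to 0.216 for Des and Tgfb1, 0.118 for Acta2 and Tgfb1, and 0.119 for Acta2 and Des, and the last 2 did not pass in limma (adjusted p = 0.0857 and 0.0835). Desmin moved towards the collagens instead: r was 0.436 for Col1a1 and Des and 0.337 for Col3a1 and Des (adjusted p = 5.84e-11 for the latter). Tgfb1 still passed in limma with Col1a1 (r = 0.15, adjusted p = 0.0178) and with Col3a1 (r = 0.239, adjusted p = 9.48e-06). In this setting 8 of the 10 pairs passed. Of all genes 16.3% passed with Col1a1, 31.3% with Col3a1, 12.3% with Acta2, 13.5% with Des and 45% with Tgfb1. Among all genes ranked by r with Des, Col1a1 was then the 24th and Col3a1 the 64th of 12233.

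With both changes together, 5 components as covariates and without the 22 libraries, a setting chosen after the data were seen, 3 of the 10 pairs passed. They were Col1a1 with Col3a1 (r = 0.656, adjusted p = 4.77e-48), Col1a1 with Des (r = 0.456, adjusted p = 7.79e-20) and Col3a1 with Des (r = 0.306, adjusted p = 2.26e-08). In this setting 4.78% of genes passed with Col1a1 as covariate, 13.2% with Col3a1, 0.91% with Acta2, 9.18% with Des and 31.1% with Tgfb1. Acta2 and Tgfb1 had an r of -0.006, Col1a1 and Tgfb1 0.029, Col3a1 and Tgfb1 0.072 and Des and Tgfb1 0.083. Acta2 and Des had r = 0.141 and missed the threshold with Acta2 as covariate (adjusted p = 0.145), but passed with Des as covariate (adjusted p = 0.0482). The unadjusted p was alike, 0.00435 and 0.00432, and more genes passed with Des, which lowers the adjusted value. Neither pair of Tgfb1 with a collagen passed in this setting (adjusted p = 0.83 with Col1a1 and 0.371 with Col3a1).

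**Figure D3:**
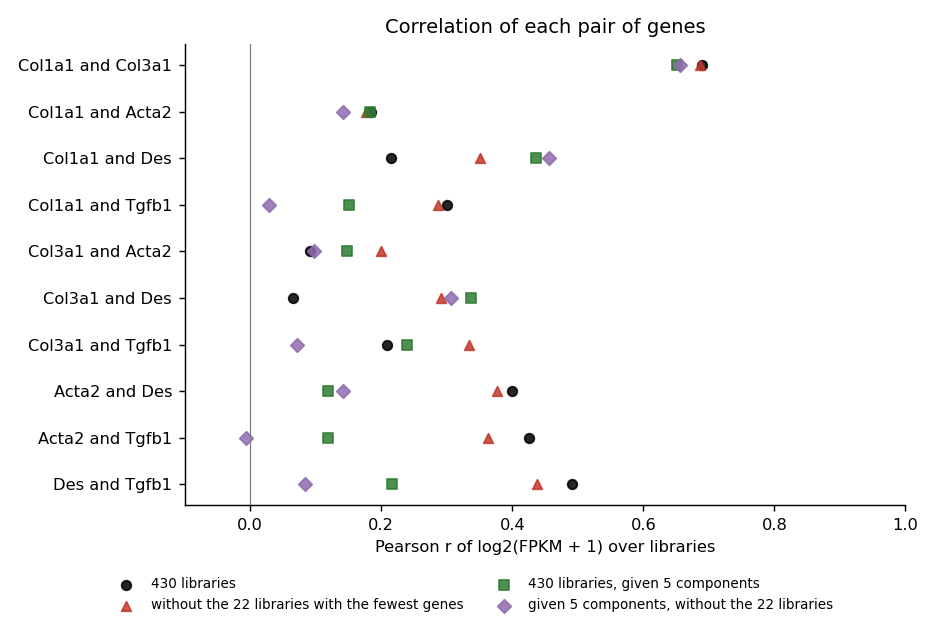
Pearson r over libraries for each of the 10 pairs, in all 430 libraries (circles), without the 22 libraries with the fewest genes above 0 (triangles), given the first 5 principal components (squares), and given the components without the 22 libraries (diamonds). Col1a1 and Col3a1 stay between 0.651 and 0.689, the pairs among Acta2, Des and Tgfb1 fall, and the pairs of Des with the collagens rise.

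The genes most like each member in level were found over all genes tested, and 2 of them, chosen after their values were seen, are given by ID because no source used here pairs them with names. In all libraries the gene closest to Col1a1 was ENSRNOG00000016695 (r = 0.71). Without the 22 libraries it ranked 2 with Col1a1 (r = 0.694) and 1 with Col3a1 (r = 0.706). With the first 5 components as covariates it ranked 2 with Col3a1 (r = 0.664) and was not among the 2 closest to Col1a1. With both changes it was not among the 2 closest to either collagen. The gene closest to Acta2 was ENSRNOG00000017628, with r = 0.59 in all libraries and 0.736 without the 22. That value is above the r of Acta2 with Des or Tgfb1. With the first 5 components as covariates this gene ranked 2 with Acta2 (r = 0.606), and with both changes also 2 (r = 0.687).

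Libraries that share the first part of their identifier resembled each other in 2 of the 5 genes. The meaning of that part is not given in the labels. It was shared within 92 sets of libraries, which gave 110 pairs. The intraclass correlation, the part of the variance found between sets, was 0.30 for Col3a1 (adjusted p = 0.00409, limma's moderated F test with a spline of the title number) and 0.232 for Tgfb1 (adjusted p = 0.0196). Des (0.168, adjusted p = 0.0607), Col1a1 (0.168, adjusted p = 0.062) and Acta2 (0.0345, adjusted p = 0.349) did not pass. Over all genes 54.7% passed, with a median intraclass correlation of 0.199, so 2 of 5 is no more than the background. Col3a1 stood at the 80.4th percentile of all genes, Tgfb1 at the 61.3rd, Col1a1 and Des at the 38.7th and Acta2 at the 5.9th.

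Neighbouring libraries were used for comparison, since sharing libraries also lie close in title number. Between the 2 libraries of a sharing pair the correlation of Col3a1 was 0.279, against 0.08 for 2350 pairs with different identifiers and title numbers at most 6 apart and -0.022 for 55571 pairs more than 100 apart. Their median difference in Col3a1 was 0.29, 0.34 and 0.36 (log2). For Tgfb1 sharing pairs differed more than neighbouring ones by that measure, 0.36 against 0.3, and for Acta2 less, 0.36 against 0.42. For Tgfb1 the correlations were 0.182, 0.12 and 0, for Des 0.179, 0.073 and -0.014, for Col1a1 0.136, 0.063 and -0.018, and for Acta2 0.056, 0.086 and -0.011. In these correlations Col3a1 had the widest gap between sharing and neighbouring pairs, and Acta2 had none in this direction. Given the 5 components the widest gap was that of Des, 0.213 against 0.009, then Col3a1, 0.246 against 0.122, and Acta2 had 0.073 against 0.048. These correlations are descriptions, because pairs share libraries.

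Acta2 depended on which libraries entered. Without the 22 libraries its intraclass correlation was 0.194 (adjusted p = 0.0746), when Col3a1 and Tgfb1 were again the 2 that passed, against 26.3% of all genes. With the 5 components as covariates in all libraries Des passed too (adjusted p = 0.0498), 3 of 5 against 56.1%. For Acta2 the value with both changes was 0.278 (adjusted p = 0.00738). In that last setting Des had 0.256 (adjusted p = 0.0132), Tgfb1 0.25 (0.0194), Col3a1 0.241 (0.0169) and Col1a1 0.119 (0.138), so 4 of 5 passed, against 54.3% of all genes. Col3a1 and Tgfb1 passed in every alternative run in which they were tested.

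**Figure D4:**
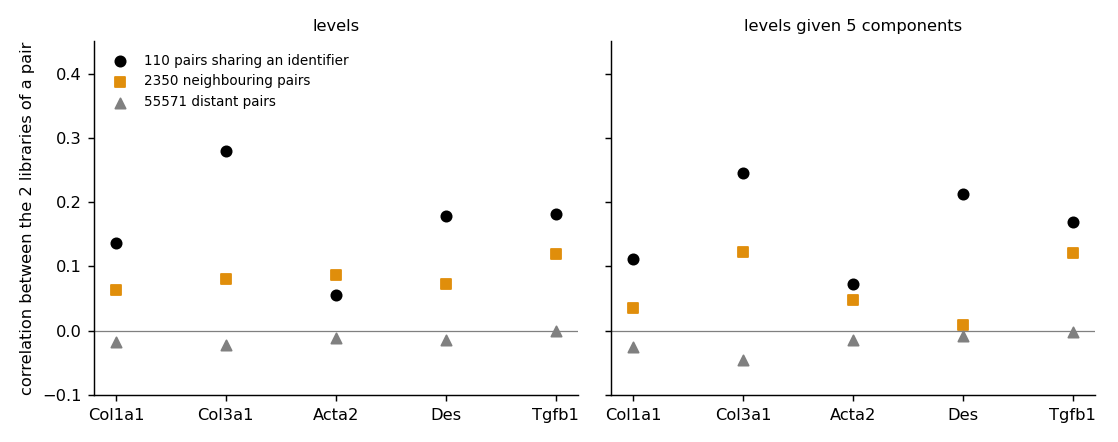
Correlation of each gene's level between the 2 libraries of a pair, for 110 pairs that share an identifier (circles), 2350 neighbouring pairs with different identifiers (squares) and 55571 distant pairs (triangles), for the levels (left) and for levels given the first 5 principal components (right). Col3a1 has the highest correlation of sharing pairs in both panels, 0.279 and 0.246, and Acta2 the lowest, 0.056 and 0.073.

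Both collagen genes were higher in libraries of higher title number, and the other genes did not pass in limma. The title number is the running number in each library's title, and the labels give no date or batch for it. Col3a1 rose by 0.07 (log2) per 100 title numbers (SE 0.0144, adjusted p = 0.000206, limma over 430 libraries) and Col1a1 by 0.06 (SE 0.0167, adjusted p = 0.011). These were 2 of 5 genes, against 8.18% of all genes. Adjusted p was 0.114 for Acta2 (0.05 per 100), 0.194 for Des (0.04 per 100) and 0.728 for Tgfb1 (-0.01 per 100). For Col3a1 Pearson's r with the title number was 0.226 and rho 0.244 (adjusted permutation p = 5e-05 for each, 5 relations), and for Col1a1 they were 0.168 and 0.203 (adjusted permutation p = 0.00122 and 5e-05). By these permutation tests Acta2 (r = 0.117 and rho 0.139, adjusted p = 0.0252 and 0.00655) and Des (0.101 and 0.1, adjusted p = 0.0436 and 0.0471) passed as well, where p is adjusted over the 5 relations only, and Tgfb1 did not (-0.039 and -0.016, adjusted p = 0.423 and 0.745). Without the 2 libraries farthest from the median title number r was 0.213 and 0.171. Neighbouring libraries were somewhat alike, as the correlations of neighbouring pairs above show, and the tests do not allow for it, so these p-values may be too small.

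Medians by block of title number showed where the levels differed. In the 4 blocks the median of Col3a1 was 34.3, 40.7, 40.2 and 43.4 FPKM, and that of Col1a1 was 2.19, 2.34, 2.34 and 2.75 FPKM. Within the blocks r with the title number was 0.183, -0.221, 0.09 and 0.089 for Col3a1 and 0.162, -0.262, 0.144 and 0.193 for Col1a1. Both were positive in 3 of the 4 blocks and negative in the second. A block covers a narrower range of title numbers, which lowers r, and the slope within blocks was not tested. Acta2 had medians of 3.02, 3.76, 3.87 and 3.77 FPKM, lowest in the first block as for Col3a1. Without the 22 libraries the slopes of Col3a1 and Col1a1 were 0.08 and 0.07 (adjusted p = 1.54e-06 and 0.00105), and Acta2 also passed (adjusted p = 0.0492), 3 of 5 against 12.5% of all genes. With the 5 components as covariates all but Tgfb1 passed, against 25.2%, and with both changes the collagens and Acta2 did, against 28.1%.

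**Figure D5:**
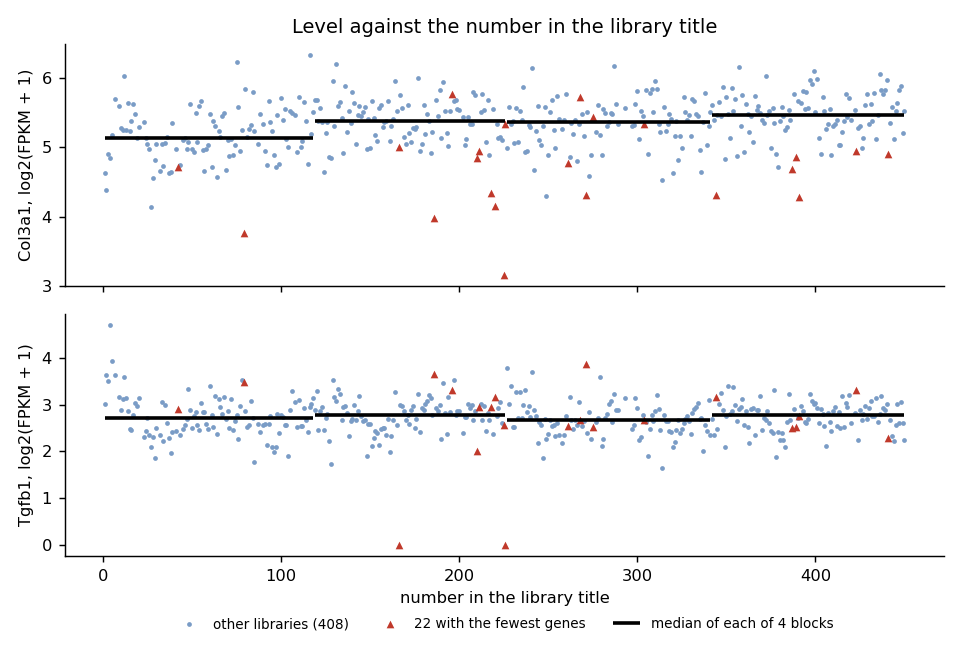
Level of Col3a1 (top) and Tgfb1 (bottom) as log2(FPKM + 1) against the number in the library title, 1 point per library (n = 430), with black lines for the median of each of 4 consecutive blocks and triangles for the 22 libraries with the fewest genes above 0. The Col3a1 median steps up from 34.3 FPKM in the first block to 40.7 in the second, while the Tgfb1 medians lie between 5.34 and 5.87 FPKM and its highest value, 24.9, is in the library numbered 4.

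Library depth went with the levels of 4 of the 5 genes, as it did for 87.4% of all genes. Per unit of log10 reconstructed reads, Col1a1 was higher by 0.75 (log2, SE 0.0819, adjusted p = 4.81e-18, limma) and Col3a1 by 0.53 (SE 0.0739, adjusted p = 8.29e-12). Tgfb1 was higher by 0.21 (SE 0.0823, adjusted p = 0.0133), and Des fell by 0.38 (SE 0.0885, adjusted p = 2.72e-05). Acta2 did not pass (-0.05, adjusted p = 0.66). With a pseudocount of 5 the calls of these genes changed places: Acta2 passed (-0.13, adjusted p = 0.0144) and Tgfb1 did not (0.03, adjusted p = 0.621). For Tgfb1 the direction turned without the 22 libraries, to -0.47 (adjusted p = 0.00307, when all 5 genes and 83.7% of all genes passed), and rho over all libraries was -0.112 against an r of 0.122. Pearson's r with log10 reads was 0.405 for Col1a1, 0.325 for Col3a1, -0.204 for Des and -0.022 for Acta2, and without the 2 libraries farthest from the median of log10 reads 0.319, 0.376, -0.448 and -0.245, and -0.171 for Tgfb1. Adjusted permutation p of r over the 5 relations was 2.5e-05 for Col1a1 and Col3a1, 0.00015 for Des, 0.0198 for Tgfb1 and 0.636 for Acta2. Spearman's rho was 0.266, 0.197, -0.261 and -0.182 for Col1a1, Col3a1, Des and Acta2, with adjusted permutation p = 2.5e-05, 0.000117, 2.5e-05 and 0.000187. Over the 4 blocks r kept its sign for Col1a1 (0.099 to 0.574) and Col3a1 (0.172 to 0.43) and not for Des, Acta2 or Tgfb1. With the first component as covariate all 5 passed in limma as higher, against 44.2% of all genes. Des then turned to 0.40 (adjusted p = 3.05e-05) and Acta2 to 0.53 (adjusted p = 1.03e-05). With the 5 components as covariates 0 of the 5 passed in limma, also at an unadjusted p under 0.05, against 48.3% of all genes. With both changes Tgfb1 alone passed (-0.26, adjusted p = 0.0205), against 37.5%. Given log10 reads, Col1a1 and Col3a1 had r = 0.645, and Col1a1 and Des 0.332. With log10 reads as covariate 9 of the 10 pairs passed in limma. Col3a1 and Des was among them (r = 0.143, adjusted p = 0.0102), and Col3a1 and Acta2 did not pass (adjusted p = 0.0688). In this setting 28.7% of all genes passed with Col1a1, 42.8% with Col3a1, 76.3% with Acta2 and 83.7% with Des. The part of depth in the results other than the pairs was not tested.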

How the data were processed

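The deposited table gives no unit. The deposited values were read as FPKM from the values themselves, since they are whole multiples of a gene step times a library step. STAR, Picard, featureCounts and DESeq2 are named as the authors' tools in the submitters' processing notes, without version or role, and no genome build is named there. Steps were re-derived from the deposited FPKM values: 100.0% of values were then whole reads within 0.001. Library step times median-ratio size factor had a coefficient of variation of 0.0002, and step times total reads 0.083. The library scale of the values thus followed that size factor and not the total of reads. The criterion for a step was settled after other criteria left fractions of reads or implausible gene lengths, so depth is a reconstruction. A gene whose reads are always even would be halved.

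Tests used limma 3.58.1 in R 4.3.3 with a variance trend on log2(FPKM + 1). Genes entered if 10% of libraries or more reached 1 FPKM (12234 genes), with Benjamini-Hochberg adjustment and a threshold of 0.05. All 5 genes passed that filter. Identifier sets were tested with a natural spline of title number (4 degrees of freedom). The 18 libraries without an identifier were not analysed here, and 1 column matched no library and was not used. Some of the fits were tested on simulated data, and the outcome is not given here. The genes, lists and tests were chosen with earlier results of these data known. Named were the 5 genes and 2 IDs, those closest to Col1a1 and to Acta2 in all libraries, chosen after their values were seen. The pathway and marker lists, and the protein features, could not be run, since no table used here holds those IDs or proteins. Alternatives were 2 pseudocounts, 2 filters, upper quartile rescaling, leaving out 5% of libraries (22), normal scores, 1 or 5 components, depth as covariate and no spline.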

Additional observations from a re-analysis of the deposited data

How the results depend on the processing

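The collagen pair passed in every alternative run that tested it, as did both collagens in the trend, and Col3a1 and Tgfb1 in the resemblance. Col1a1 with Des also passed in every such run, though its r did not keep its sign in every block of title numbers. At 10 FPKM Col3a1 was the 1 gene left to test, so the counts for the pairs, resemblance, trend and depth were each 1 by construction, and the SD was 0.396; the pairs there had Col3a1 as the response only. With 5 components and without the 22 libraries, chosen after the data were seen, 3 pairs, 4 resemblances and 1 relation to depth passed. Resemblance passed for 5 genes on normal scores, against 85.8% of all genes, and for 4 without the spline, against 65.6%. The trend passed for 4 with 5 components. Depth passed for 0 genes with 5 components. The median SD of 0.454 became 0.54 with a pseudocount of 0.5, 0.251 with 5, 0.388 without the 22 libraries, 0.413 without 1 component and 0.353 without 5. The median size of r with the first component, 0.316, was 0.23 without the 22, and the gap of Col3a1 to Tgfb1 was 2.09 with a pseudocount of 5. Directions turned for Tgfb1 with Acta2 (slope -0.003027, both changes), and for the Tgfb1 trend (0.01189 with 5 components, 0.001687 with both changes). In the relation to depth they turned for Acta2 (0.07042 with a pseudocount of 0.5, 0.02284 rescaled, 0.5305 with 1 component), for Tgfb1 (-0.4652 without the 22, -0.09818 on normal scores, -0.1159 with 5 components, -0.2614 with both) and for Des (0.4009 with 1 component, 0.04703 with 5, 0.249 with both). The cause was not tested except at 10 FPKM. The reads behind Acta2 and Des limit what their levels can show in the shallow libraries. No paired contrast between conditions was possible because all libraries form 1 group. The differences between genes in the order of levels were paired within each library. The sets that share an identifier were tested for resemblance itself.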
